A study of Mus musculus with 6 samples.

Results

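A set of 9 genes of hepatic steroid hormone metabolism was followed in mouse liver under a high-fat and a normal diet. They were Cyp17a1, Hsd3b5, Hsd3b2, Akr1c6, Hsd17b6, Hsd17b2, Hsd11b1, Sult1e1 and Srd5a1. A gene entered with every probe set that carries its symbol alone, which gave 9 probe sets for 8 of the 9 genes, among 34945 such probe sets and 18193 genes on the array. Srd5a1 is not analysed here. The set was assembled because Cyp17a1 and Sult1e1 were strongly higher under the high-fat diet, so the differences of these genes between the diets are given as a description, with no p-value, and the number of them that passed the threshold of the fit to all genes is printed once beside the background and supports nothing.

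The high-fat group held male C57BL/6 mice, an inbred laboratory strain, that from 8 weeks of age ate for 12 weeks a diet drawing 60% of its calories from fat. The normal diet group held male C57BL/6 mice of the same age fed a normal diet for the same time. No transgene, deletion or drug is named for either group. Each diet had 6 mice, whose liver RNA was combined in pairs, which is taken to mean 3 pools of 2 animals for either diet. Every pool had an Affymetrix whole-genome expression array of its own (n = 3 arrays per diet). Levels are on the log2 scale. Differences are high-fat minus normal diet, ± their standard error (SE) in the limma model of all genes, and a gene is called where its Benjamini-Hochberg adjusted p is below 0.05.

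The liver inactivates, activates and conjugates the steroid hormones that reach it from the adrenal and the gonads. Hydroxysteroid dehydrogenases oxidise or reduce single positions of the steroid ring and so switch hormones between strong and weak forms, while sulfotransferases and glucuronosyltransferases attach groups that end receptor binding and allow excretion. In mice many of these enzymes differ between male and female liver under the pattern of growth hormone release, and Hsd3b5 is a classic gene of male liver whereas Cyp17a1 is higher in female liver.

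The DNA just before the start is given for 3 of these genes. Of the 8 measured, Sult1e1 had the largest positive difference and Hsd3b5 the largest negative one, and Hsd3b2 is a relative of Hsd3b5 whose diets overlapped. The 250 bases before each start are given 5′ to 3′ on the gene's own strand, from RefSeq on build GRCm38.p6, at chr5:87591612-87591861 (minus strand), chr3:98645535-98645784 (minus strand) and chr3:98724544-98724793 (minus strand). Capitals mark any of 3 motifs searched on both strands, none of which overlapped another: TTCNNNGAA, the palindrome of the growth hormone-activated factor STAT5, AGGTCA, a nuclear receptor hexamer, and TATAAA, the TATA box.
Sult1e1: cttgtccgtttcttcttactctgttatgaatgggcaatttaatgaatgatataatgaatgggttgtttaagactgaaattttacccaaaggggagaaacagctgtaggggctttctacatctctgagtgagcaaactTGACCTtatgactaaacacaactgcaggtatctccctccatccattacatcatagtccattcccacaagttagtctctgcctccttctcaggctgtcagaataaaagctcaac
Hsd3b5: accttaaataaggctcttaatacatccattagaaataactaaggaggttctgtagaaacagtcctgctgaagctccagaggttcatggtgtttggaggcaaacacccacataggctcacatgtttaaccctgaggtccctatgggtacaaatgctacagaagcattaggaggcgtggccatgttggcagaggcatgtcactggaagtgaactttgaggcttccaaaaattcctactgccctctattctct
Hsd3b2: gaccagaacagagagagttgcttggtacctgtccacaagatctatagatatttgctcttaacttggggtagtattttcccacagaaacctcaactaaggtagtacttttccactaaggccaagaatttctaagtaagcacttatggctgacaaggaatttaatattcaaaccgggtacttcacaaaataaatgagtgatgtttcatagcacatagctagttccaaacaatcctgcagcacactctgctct

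The Sult1e1 sequence held AGGTCA on the strand opposite to the gene (printed as TGACCT), at bases -113 to -108 before the start, and the Hsd3b5 and Hsd3b2 sequences held none of the motifs. Of all 32851 windows of this length in the promoter table, 14.0% held AGGTCA, 7.02% TTCNNNGAA and 12.4% TATAAA. In a global alignment the Hsd3b5 and Hsd3b2 windows were identical at 53.6% of the alignment columns. The unrelated pairs Hsd3b5 with Sult1e1 and Hsd3b2 with Sult1e1 reached 50.5% and 49.8%. Cyp17a1 and Hsd17b2 had no entry to print.

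The labelled tissue was male liver. Xist, the transcript of the inactive X chromosome, lay between 4.09 and 4.36 on all 6 arrays. Of the Y-linked genes Eif2s3y lay between 7.58 and 8.20, while Kdm5d, between 3.92 and 4.21, and Uty, between 3.72 and 4.34, were as low as Xist. The 7 hepatocyte markers measured had a summed level of 16.29 to 16.35 under the high-fat diet and 16.42 to 16.46 under the normal diet (log2 of the sum). Limma called 2 of these 7 lower and 0 higher, with 3 lower and 0 higher at an unadjusted p below 0.05, and the part of this in the lower values of other hepatocyte genes was not tested. Of 9 macrophage markers limma called 6 higher under the high-fat diet, with a summed level of 12.02 to 12.10, against 11.25 to 11.47 under the normal diet. Of 7 stellate cell and fibroblast markers 3 were called higher, with a summed level of 11.34 to 11.68 under the high-fat diet, against 10.81 to 10.87 under the normal diet. In bulk liver RNA fewer cells of a type and less RNA per cell cannot be told apart. Across genes, which are not replicates, Pearson's r was 0.992 to 0.994 between high-fat arrays, 0.972 to 0.988 between normal diet arrays and 0.951 to 0.980 between diets, with normal diet 3 in the lowest pairs. The control probe sets for the ends of the Gapdh transcript, a sign of RNA quality, differed by -0.19, -0.04 and 0.01 (3′ minus 5′, log2) on the high-fat arrays, against 0.36, -0.03 and 0.01 on the normal diet arrays, so normal diet 1 stood apart. The part of RNA quality in the results was not tested. Fits without normal diet 1 were made, and over all genes they called 1065, against 1070 with all arrays. Normal diet 2 stood apart in sex-biased genes, and values without single arrays are given where they move a result.

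Against this background, 1070 of 14071 genes tested (7.60%) were called at an adjusted p below 0.05 by limma, of which 826 (5.87%) had a positive and 244 (1.73%) a negative difference. The share of higher calls was 77.2%, and it was 66.6% after a further quantile normalization (597 higher and 299 lower). After cyclic loess this share was 69.8%, and after median centring it was 82.9% (1003 higher and 207 lower). In 35.8% of the genes the ranges of both diets were separate. Without high-fat 1, 2 and 3 the calls over all genes numbered 272, 217 and 169, so a call lost that way was not particular to a gene. All 8 steroid enzyme genes passed the filter on low levels, Hsd3b5 through the normal diet arrays, of which 3 were above the filter against 1 of the high-fat arrays. The same fit called 2 of the 8 genes higher and 1, Hsd17b2, lower, and 4 had separate ranges. Hsd3b5 had separate ranges but was not called. Nothing is read from these counts, because the genes were chosen from this contrast. The median difference of the 8 genes was -0.13, against 0.00 (0.0033) for all genes.

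Cyp17a1 encodes the P450 that hydroxylates and cleaves steroids on the way to androgen precursors. Its level was 8.85, 8.02 and 8.79 on the high-fat arrays, against 6.23, 6.23 and 5.90 on the normal diet arrays. All 3 high-fat arrays lay above all 3 normal diet arrays, and the lowest high-fat array was high-fat 2. Cyp17a1 averaged 8.56 ± 0.46 under the high-fat diet and 6.12 ± 0.19 under the normal diet (SD, n = 3 each). The difference was 2.44 ± 0.23, a 5.42-fold higher level. It ranged from 2.29 to 2.71 when each array was left out in turn.

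Markers of steroid-producing cells of the adrenal and gonads were also looked at. Lhcgr, Akr1b7 and Insl3 had no probe set that carries their symbol alone. The other 7 were measured and 5 passed the level filter, while Cyp11b1 and Mc2r did not. Limma called 0 of the 5, with 0 higher and 2 lower at an unadjusted p below 0.05. The summed level of all 7 was 7.47 to 7.63 under the high-fat diet and 7.59 to 7.71 under the normal diet. The level filter itself was 3.48 to 3.50 on the high-fat arrays and 3.53 to 3.59 on the normal diet arrays. This filter applies to 1 probe set, whereas the summed level adds 7, so the sum does not show how far single markers lay above it.

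Sult1e1 encodes the sulfotransferase that inactivates oestrogens. It stood at 10.52, 9.32 and 9.04 on the high-fat arrays, against 5.66, 6.33 and 6.49 on the normal diet arrays. The diets were separated by more than the whole range within either of them. Sult1e1 averaged 9.62 ± 0.79 under the high-fat diet and 6.16 ± 0.44 under the normal diet (SD, n = 3 each). The difference was 3.46 ± 0.39, or 11-fold, and 3.02 to 3.76 with 1 array left out. High-fat 1 was the highest array for both Sult1e1 and Cyp17a1, and normal diet 1 was the lowest for Sult1e1 but not for Cyp17a1.

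**Figure D1:**
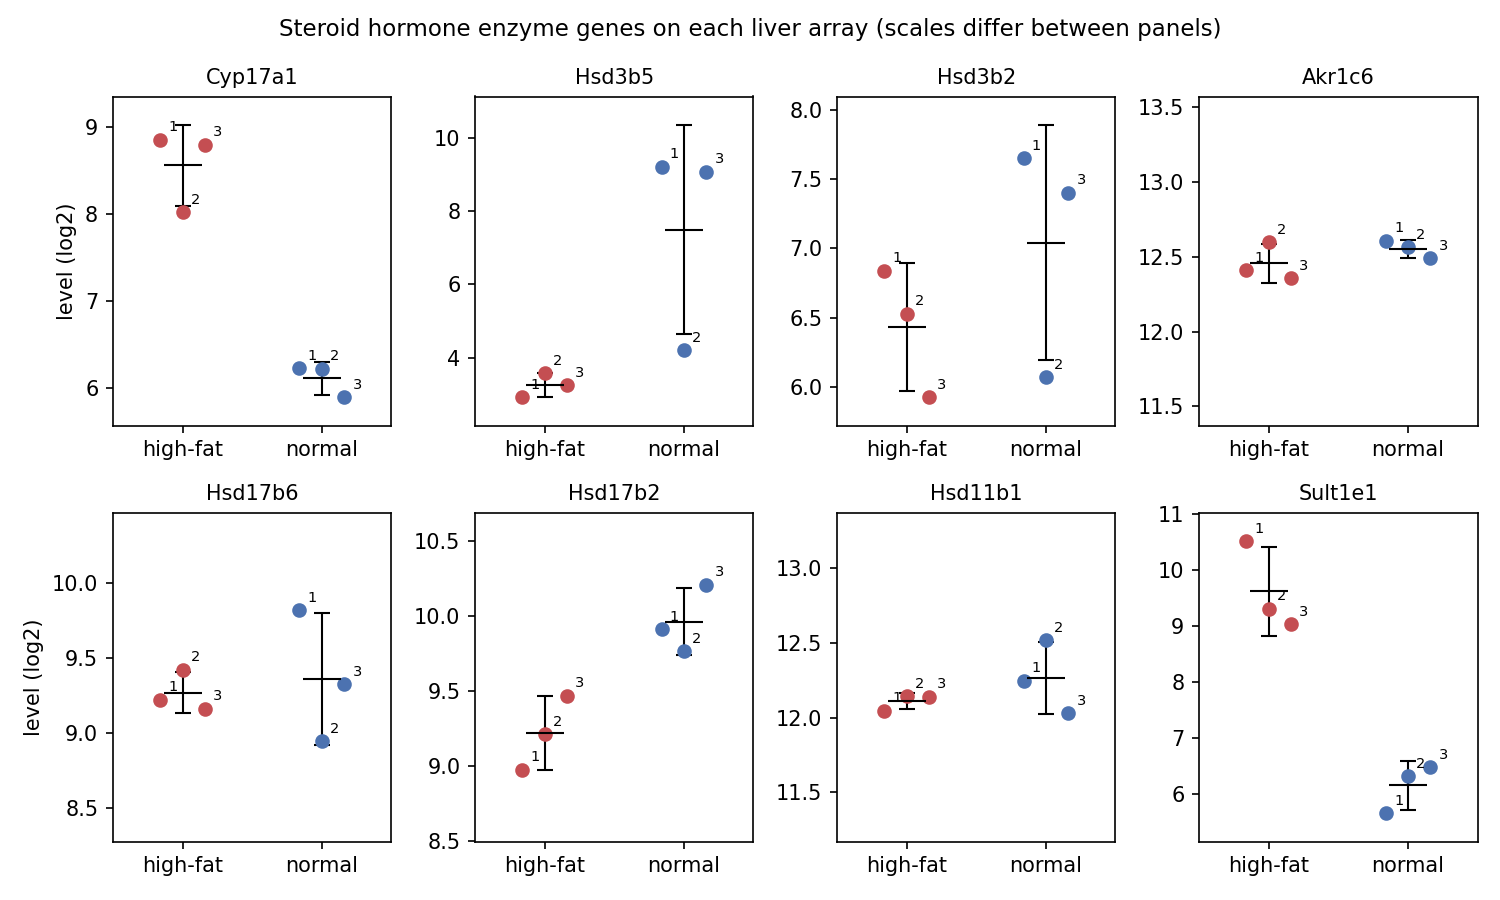
Log2 level (y axis) of 8 steroid enzyme genes on each array, with high-fat arrays in red on the left and normal diet arrays in blue on the right of each panel and scales that differ between panels; numbers are replicate labels, and bars give the mean ± SD (n = 3). Cyp17a1 and Sult1e1 separate the diets upward, and in Hsd3b5 normal diet 2, at 4.21, sits apart from normal diet 1 and 3, at 9.21 and 9.08.

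Hsd3b5 belongs to the family of steroid dehydrogenases that make progesterone and androgens, but in mouse its product works as a reductase that inactivates androgens in male liver. Its level was 2.93, 3.58 and 3.24 on the high-fat arrays, against 9.21, 4.21 and 9.08 on the normal diet arrays. Every high-fat array was below every normal diet array, yet normal diet 2 lay closer to the high-fat arrays than to the other normal diet arrays. Hsd3b5 averaged 3.25 ± 0.33 under the high-fat diet and 7.50 ± 2.85 under the normal diet (SD, n = 3 each). The mean difference was -4.25 ± 1.22. Without normal diet 2 it was -5.89, against -3.39 without normal diet 1 and -3.46 without normal diet 3. Weighting the arrays gave -3.18. The level of 2.93 to 3.58 in the high-fat group lay close to the level filter of those arrays.

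The spread of Hsd3b5 within the normal diet group was among the widest on these arrays. Its SD over the 3 normal diet arrays was 2.85, rank 6 of 14071 genes, against a median of 0.17, while its SD over the high-fat arrays was 0.33, against a median of 0.12. In normal diet 2 it lay 4.87 below the lower of the other normal diet arrays, further than any other gene tested. Hsd3b2 had the next widest spread of the 8 genes, with an SD of 0.85 (rank 219).

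Hsd3b2 is a relative of Hsd3b5 on the same chromosome, and the genes of this family are close copies, so a probe set may pick up more than 1 of them. It was at 6.84, 6.53 and 5.93 on the high-fat arrays, against 7.65, 6.07 and 7.40 on the normal diet arrays. The diets overlapped, and normal diet 2 was again the lowest normal diet array and fell between the high-fat values. The difference was -0.61 ± 0.42 with all arrays and -1.09 without normal diet 2. It was -0.30 without normal diet 1, -0.36 without high-fat 3 and -0.28 with array weights. A probe set annotated to Hsd3b2 together with Hsd3b3 and Hsd3b6 went the other way, at 9.26, 8.59 and 8.17 on the high-fat arrays against 8.60, 8.04 and 7.92 on the normal diet arrays. Its difference was 0.49, with overlapping diets.

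Akr1c6 encodes an aldo-keto reductase that in mouse acts on oestradiol and testosterone. Its level was 12.41, 12.60 and 12.35 on the high-fat arrays and 12.61, 12.57 and 12.49 on the normal diet arrays. The difference was -0.10 ± 0.11 and -0.23 after cyclic loess, and the diets overlapped. It ranged from -0.17 without high-fat 2 to -0.05 without high-fat 3.

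Hsd17b6 encodes an oxidoreductase of androgens and oestrogens. Its main probe set gave 9.22, 9.42 and 9.16 on the high-fat arrays and 9.82, 8.94 and 9.32 on the normal diet arrays, which enclose the high-fat values. The difference was -0.09 ± 0.21, with no stable sign, since leaving out normal diet 1 gave 0.14, leaving out normal diet 2 gave -0.30 and weighting the arrays gave 0.02. It was -0.17 without high-fat 2, -0.04 without high-fat 3, -0.23 after quantile normalization, -0.22 after cyclic loess and -0.05 after median centring. A second probe set of the gene gave 4.56, 4.49 and 3.71 on the high-fat arrays, against 4.50, 4.36 and 4.73 on the normal diet arrays. Its difference was -0.27, also with overlap, and the mean of both probe sets differed by -0.18.

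Hsd17b2 encodes the dehydrogenase that turns oestradiol and testosterone into weaker hormones. It was at 8.97, 9.21 and 9.47 on the high-fat arrays, against 9.91, 9.77 and 10.21 on the normal diet arrays. All high-fat arrays were lower than all normal diet arrays, with a gap of 0.30 between the nearest ones. The difference was -0.75 ± 0.17, a 1.68-fold lower level, and -0.87 to -0.62 with 1 array left out.

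Hsd11b1 encodes the enzyme that regenerates active glucocorticoid from its inert form in liver. It was at 12.05, 12.15 and 12.14 on the high-fat arrays, against 12.25, 12.52 and 12.03 on the normal diet arrays. The normal diet arrays lay on both sides of the high-fat arrays. The difference was -0.15 ± 0.14, and it was -0.03 without normal diet 2, -0.27 without normal diet 3, -0.28 after cyclic loess and -0.25 with array weights.

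**Figure D2:**
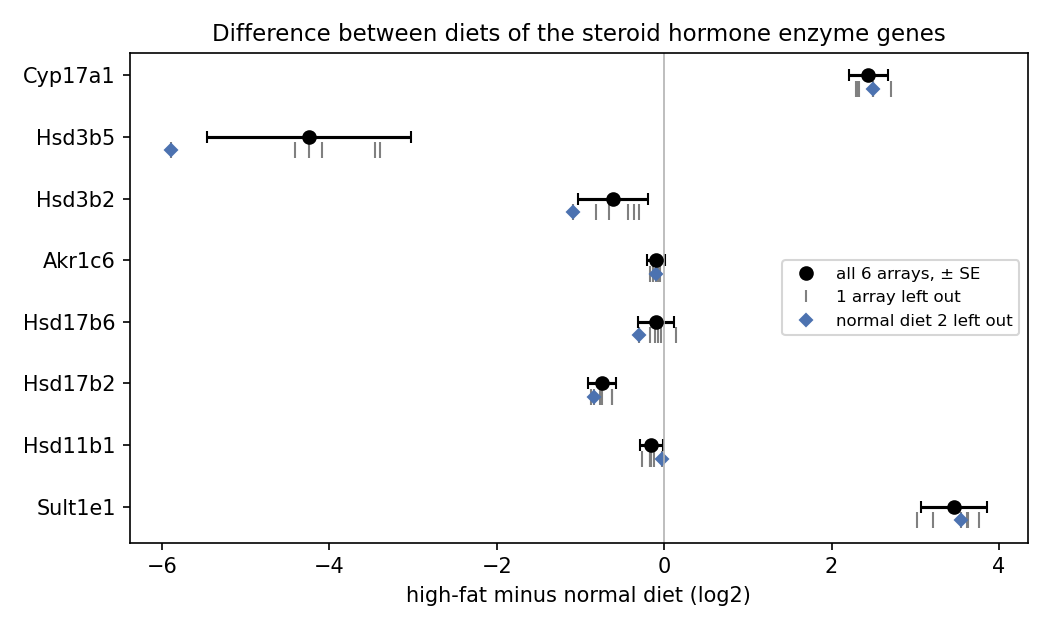
Difference between the diets (x axis, high-fat minus normal diet, log2) for the 8 genes, with black points and bars for all 6 arrays ± SE, grey ticks for fits without 1 array and blue diamonds for the fit without normal diet 2. Leaving out normal diet 2 takes Hsd3b5 to -5.89 and Hsd3b2 to -1.09, and leaves Cyp17a1 at 2.49 and Sult1e1 at 3.55.

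Genes with the profile closest to Cyp17a1 were sought over the 6 arrays, by the root mean square distance between log2 profiles centred on their mean. They were the water channel gene Aqp4 (distance 0.16), the ubiquitin-like gene Ubd (0.18) and the desaturase gene Scd2 (0.24). Aqp4 was at 5.78, 4.83 and 5.57 on the high-fat arrays, against 3.19, 3.48 and 2.81 on the normal diet arrays. Its dip in high-fat 2, as in Cyp17a1, follows in part from choosing genes by their likeness to Cyp17a1. The normal diet levels of Aqp4 lay below the level filter of those arrays (3.53 to 3.59), so it passed the filter through the high-fat arrays. Closest to Sult1e1 were Osbpl3, an oxysterol-binding protein gene (0.51), Sdcbp2 (0.52) and Rad51b, a recombination gene (0.59). With the mean of all probe sets of a gene, Aqp4 differed by 1.19, Scd2 by 0.82, Osbpl3 by 1.79 and Rad51b by 1.94, against 2.23, 2.25, 3.01 and 3.90 with the probe set used.

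Closest to Hsd3b5 were Cyp7b1, which hydroxylates oxysterols and steroids (distance 0.95), the anion transporter gene Slco1a1 (1.25) and the pseudogene Serpina4-ps1 (1.32). Cyp7b1 was at 7.07, 6.93 and 7.43 on the high-fat arrays, against 12.13, 10.06 and 12.52 on the normal diet arrays, and Slco1a1 was at 4.58, 5.60 and 5.59 on the high-fat arrays, against 9.95, 8.34 and 9.30 on the normal diet arrays. In both, as in Hsd3b5, normal diet 2 was the lowest normal diet array, which follows in part from choosing genes by their likeness to Hsd3b5. The difference of Cyp7b1 was -4.43 ± 0.58 (limma adjusted p = 0.0086) and -5.18 without normal diet 2. With its probe sets averaged together, Cyp7b1 differed by -3.05.

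Of 15 male-biased liver genes tested besides Hsd3b5, limma called 9 lower and 0 higher, with 11 lower and 0 higher at an unadjusted p below 0.05, and their median difference was -1.31, against 0.00 (0.0033) for all genes. Egfr, the epidermal growth factor receptor gene, fell 8.89-fold (-3.15 ± 0.20, limma adjusted p = 0.00153), and its probe sets averaged together differed by -1.56. Slco1a1 fell 15.4-fold (-3.94 ± 0.43, limma adjusted p = 0.00508). C8b, a complement gene, fell 4.87-fold (-2.28 ± 0.33, limma adjusted p = 0.0117). Nudt7, a peroxisomal nucleotide hydrolase gene, fell 2.48-fold (-1.31 ± 0.16, limma adjusted p = 0.00731). The fifth gene named was Cyp7b1, which is in the list of hydroxylating P450s too. Without high-fat 1, 2 and 3 the count was 5, 5 and 4, without normal diet 2 it was 10, and C8b was not called without high-fat 1 or 3 (limma adjusted p = 0.0508 and 0.0579). With a replicate block 6 were lower.

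Of 18 female-biased liver genes tested, limma called 2 higher and 0 lower, with 3 higher and 0 lower at an unadjusted p below 0.05, at a median of 0.64. Ntrk2, a neurotrophin receptor gene, rose 2.40-fold (1.26 ± 0.10, limma adjusted p = 0.0025), and its probe sets averaged together differed by 0.40. Slc22a27, an organic ion transporter gene, rose 3.12-fold (1.64 ± 0.32, limma adjusted p = 0.0269). The count was 5 without normal diet 2, 4 where the probe sets of a gene were averaged, and 1 without normal diet 1, without any 1 of the high-fat arrays or with a replicate block. Slc22a27 lost its call without normal diet 1 and without each high-fat array (limma adjusted p = 0.0513 to 0.094) and with the block (0.0638). Without normal diet 3, 1 gene of the list was called lower.

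Normal diet 2 differed from the other normal diet arrays along both lists, which was looked at after the values of Hsd3b5 had been seen. It was lower than both other arrays in 13 of 15 male-biased genes (86.7%) and higher than both in 15 of 18 female-biased genes (83.3%), whereas over all genes these shares were 29.6% and 29.5%. Cyp2b9, a female-biased P450 gene named after its values were seen, was at 9.15, 8.65 and 9.52 on the high-fat arrays, against 4.26, 9.83 and 2.82 on the normal diet arrays. Normal diet 2 thus had the highest Cyp2b9 level of all 6 arrays. C6, a male-biased complement gene chosen the same way, was at 7.52, 7.90 and 7.79 on the high-fat arrays, against 9.47, 8.39 and 9.77 on the normal diet arrays. Hao2, a female-biased oxidase gene, was likewise at 6.97 in normal diet 2, against 4.17 and 3.79 in normal diet 1 and 3. No test of normal diet 2 against arrays of its own group was made.

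**Figure D3:**
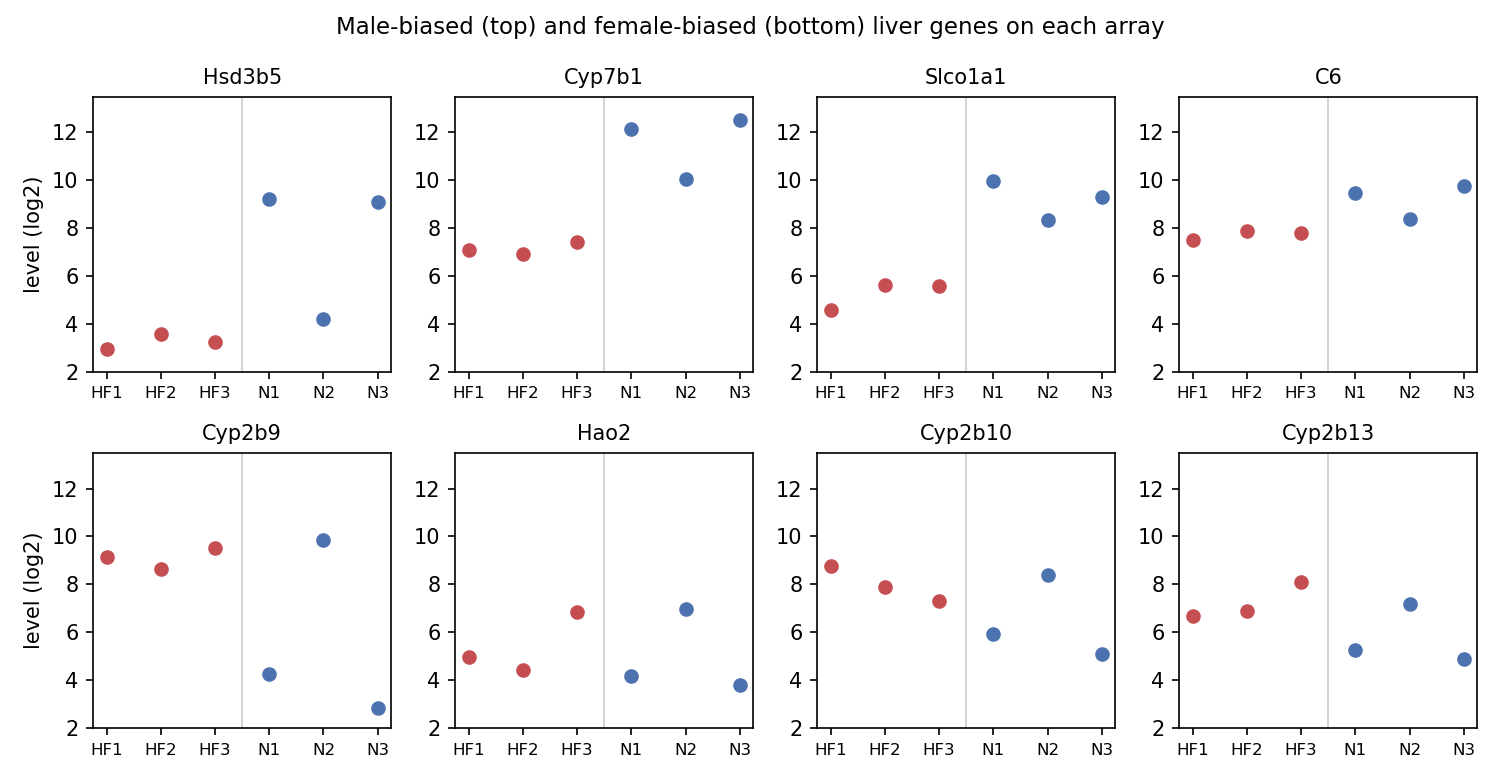
Log2 level (y axis, same scale in all panels) of 4 male-biased genes in the top row and 4 female-biased genes in the bottom row on high-fat arrays 1 to 3 (HF1 to HF3, red) and normal diet arrays 1 to 3 (N1 to N3, blue). In normal diet 2 the top genes are lower and the bottom genes higher than in normal diet 1 and 3. Cyp7b1 and Slco1a1 are shown as nearest profiles to Hsd3b5 over these arrays, so their low level in normal diet 2 follows in part from that choice. The genes other than Hsd3b5, Cyp7b1 and Slco1a1 were picked after their values were seen.

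Of 20 other hydroxysteroid dehydrogenase and steroid reductase genes tested, limma called 2 higher, 1 lower and 17 neither way, at a median difference of 0.29. H6pd supplies Hsd11b1 with its cofactor in the endoplasmic reticulum, and it was at 9.54, 9.77 and 9.57 on the high-fat arrays, against 10.29, 10.53 and 10.85 on the normal diet arrays. H6pd fell 1.91-fold (-0.93 ± 0.16, limma adjusted p = 0.0168) with no overlap of the diets, while Hsd11b1 itself differed by -0.15. H6pd was not called without any 1 of the high-fat arrays (limma adjusted p = 0.054 to 0.0822). Srd5a3, a relative of Srd5a1 best known for making dolichol, rose 2.00-fold (1.00 ± 0.15, limma adjusted p = 0.0125), and was not called without high-fat 2 or 3 (0.0611 and 0.0677). Hsd3b7, of bile acid synthesis, rose 1.50-fold (0.58 ± 0.13, limma adjusted p = 0.0395), and lost its call after quantile normalization and cyclic loess (limma adjusted p = 0.0657 and 0.101) without normal diet 1 or 2 (0.0775 and 0.0836) and without each high-fat array (0.071 to 0.129). Without high-fat 1, 2 and 3 the higher calls numbered 1, 0 and 0 and the lower calls 0 each, and without normal diet 1 and 3 the higher calls numbered 1 and 3.

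**Figure D4:**
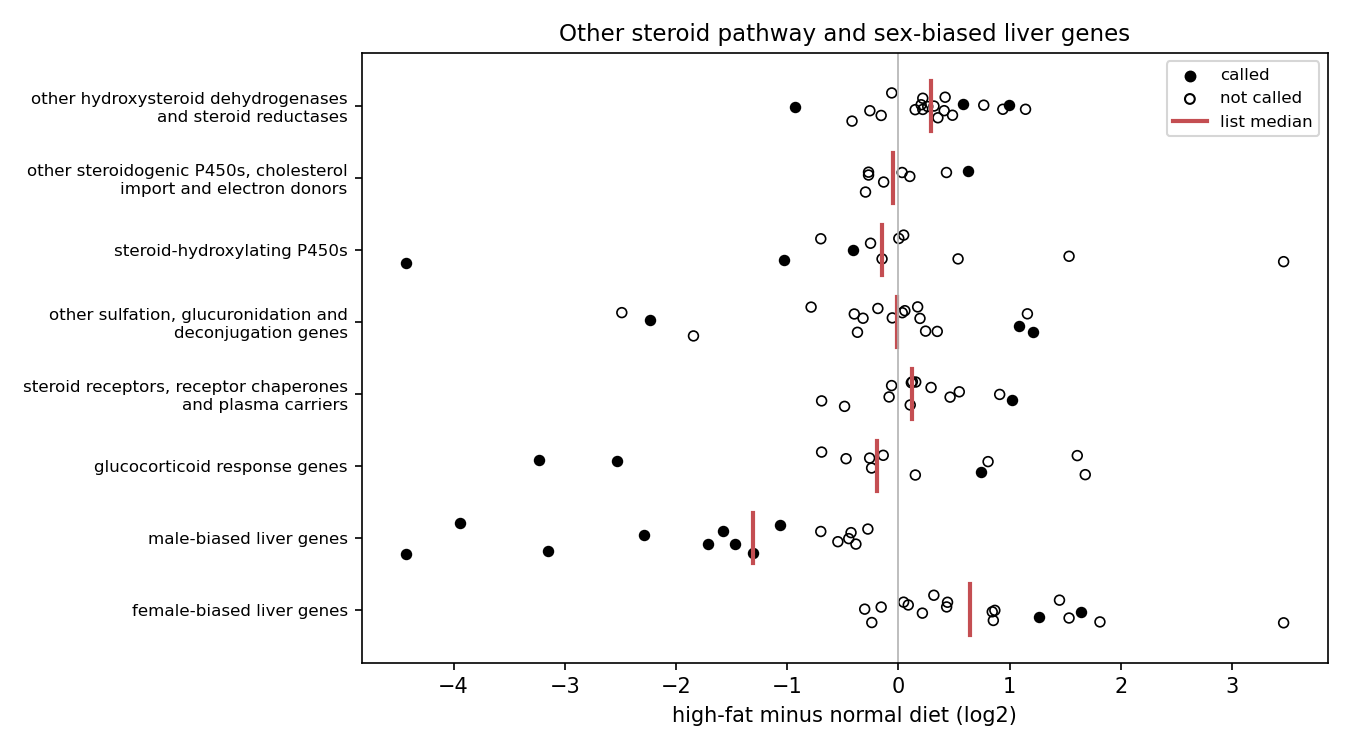
Difference between the diets (x axis, high-fat minus normal diet, log2) of every tested gene of 8 lists (rows), filled where limma called the gene, with the list median as a red line. The male-biased row lies entirely below 0, with a median of -1.31, and the medians of the 6 steroid pathway rows lie between -0.19 and 0.29.

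Of the other steroidogenic P450 genes and their helpers, 8 were tested and limma called 1 higher and 0 lower, with 2 higher and 3 lower at an unadjusted p below 0.05. The call was Tspo, the translocator protein of the outer mitochondrial membrane, which rose 1.55-fold (0.63 ± 0.09, limma adjusted p = 0.0121). It was not called without high-fat 1, 2 or 3 (limma adjusted p = 0.0609, 0.0523 and 0.0614), and 2 genes of the list were called higher without normal diet 2. Macrophages also carry Tspo and the lysosomal gene Gusb, described with conjugation, and the part of the higher macrophage markers in both values was not tested.

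Steroid-hydroxylating P450 genes had 3 lower and 0 higher calls of 11 tested, with 4 lower and 1 higher at an unadjusted p below 0.05, at a median of -0.15. Besides Cyp7b1 these were Cyp1a2, which hydroxylates oestradiol (2.04-fold lower, -1.03 ± 0.22, limma adjusted p = 0.0336), and Cyp2c29 (1.33-fold lower, -0.41 ± 0.09, limma adjusted p = 0.0381). Leaving out any 1 high-fat array kept 1 of the 3 calls, and neither Cyp1a2 nor Cyp2c29 was then called (limma adjusted p = 0.108 to 0.134). Cyp2c29 also lost its call after median centring (limma adjusted p = 0.0543), with a replicate block (0.0853) and without normal diet 1 or 2 (0.0704 and 0.0731). Without normal diet 2, 2 genes of the list were called higher, and with array weights 1.

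Of 18 conjugation and deconjugation genes tested besides Sult1e1, limma called 2 higher and 1 lower, at a median of -0.01. Sult2a8, a hydroxysteroid and bile acid sulfotransferase gene of mouse liver, was at 9.30, 10.30 and 9.74 on the high-fat arrays, against 12.27, 11.91 and 11.85 on the normal diet arrays. Sult2a8 fell 4.70-fold (-2.23 ± 0.25, limma adjusted p = 0.0052) and stayed called with each array left out, so the sulfotransferase genes Sult1e1 and Sult2a8 had opposite differences. Sult1c2, a further sulfotransferase gene, rose 2.32-fold (1.21 ± 0.26, limma adjusted p = 0.0361), and Gusb, the lysosomal enzyme that removes glucuronic acid, 2.12-fold (1.08 ± 0.21, limma adjusted p = 0.0284). Neither of these was called without 1 of the high-fat arrays (limma adjusted p = 0.0897 to 0.132), and Sult1c2 was not called without normal diet 1 (0.0717). Lower calls numbered 2 without normal diet 1 or 2, and 4 without normal diet 3.

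Receptors, their chaperones and plasma carriers had 1 higher and 0 lower call of 13 tested, with 2 higher and 1 lower at an unadjusted p below 0.05, at a median of 0.13. Pgrmc2, a membrane-bound haem-binding protein gene, rose 2.02-fold (1.02 ± 0.21, limma adjusted p = 0.0328). It was not called without normal diet 1 (limma adjusted p = 0.0546), without any 1 of the high-fat arrays (0.0982 to 0.129) or with a replicate block (0.0588). When normal diet 3 was left out, 2 genes were called higher.

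Of 12 genes that respond to glucocorticoids, limma called 1 higher, 2 lower and 9 neither way, at a median of -0.19. The metallothionein genes Mt2 and Mt1, which also respond to metals, fell 9.38-fold (-3.23 ± 0.29, limma adjusted p = 0.00326) and 5.79-fold (-2.53 ± 0.24, limma adjusted p = 0.00351). Sgk1, a kinase gene, rose 1.67-fold (0.74 ± 0.14, limma adjusted p = 0.0268) and lost its call without normal diet 1 (0.0551) and without each high-fat array (0.0533 to 0.101). Mt1 was not called with probe sets free of a suffix that marks shared transcripts (-1.75, limma adjusted p = 0.0518). Lower calls numbered 3 without normal diet 3, and higher calls 2 with a replicate block.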

How the data were processed

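The authors deposited log2 levels, 1 per probe set and array. The submitters' processing notes name RMA and Affymetrix Expression Console 1.0. RMA corrects background, normalizes quantiles and summarises probes, and it understates folds close to background. Of 45101 probe sets 64 controls were left out, 34945 had 1 symbol in the platform annotation, 932 several, and 9160 are unnamed here. The gene table of GRCm38.p6 was used for names, which matched the gene ID of 34741 probe sets and changed 0 symbols.

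The probe set of highest mean level stood for its gene, and a gene was tested where that level exceeded the array's 40th percentile on 3 or more of the 6 arrays. limma 3.58.1 in R 4.3.3 (lmFit, eBayes) fitted high-fat minus normal diet, two-sided, adjusted by Benjamini and Hochberg's method across the genes tested, and called genes below 0.05. The test was checked on simulated data with independent noise of the same spread in both diets. The check therefore does not cover arrays that stand apart or a spread that differs between the diets. Python 3.11.15 with pandas 2.3.3, Biopython 1.88 and matplotlib 3.10.9 made summaries, alignments and plots. The number of arrays limits the precision, and p-values measure the spread between pools.

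The steroid enzyme genes and all lists were chosen with earlier results of these data known. Named were all steroid enzyme genes, up to 5 called genes per list by smallest p, and the 3 nearest profiles of Cyp17a1, Sult1e1 and Hsd3b5. Of 153 pathway list entries 127 had a probe set. Alternatives were other level filters, variance models, scalings and probe set choices, a block for the replicate number, and leaving out arrays singly. Arrays of equal replicate number were not treated as pairs. The correlations of their deviations across genes were -0.012, 0.036 and 0.10, against -0.085 to 0.079 for unequal numbers. With 3 arrays per diet these values cannot exclude a shared batch.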

Additional observations from a re-analysis of the deposited data

How the results depend on the processing

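The difference of Hsd17b6 turned its sign without normal diet 1 (0.14) and with array weights (0.02). Other level filters, other variance models and the block leave the differences of the 8 steroid enzyme genes as they are by construction. Over all genes the calls numbered 169 to 1245 with 1 array left out (123 to 933 higher and 46 to 312 lower), lowest without high-fat 3 and highest without normal diet 3, against 1070. Array weights gave 373 lower genes, against 244. Over all pathway lists 9 genes were higher and 15 lower, against 1 to 13 and 7 to 20 with 1 array left out. Of the 8 steroid enzyme genes, chosen from this contrast, 0 to 2 were called lower with 1 array left out, against 1, which supports nothing about them. With a replicate block 768 genes were called (581 higher and 187 lower), and 9 higher and 11 lower in the lists. The block leaves fewer degrees of freedom, and the labels do not say whether arrays of equal replicate number share more than that number. Other causes of lost calls were not tested. Probe sets tested one by one gave the Hsd17b6 values in the report.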

Other observations

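Some list members that were not called had levels of interest, chosen after their values were seen. Ugt2b37, a glucuronosyltransferase gene, was at 3.84, 4.41 and 4.07 on the high-fat arrays, against 5.08, 6.25 and 8.46 on the normal diet arrays (-2.49 ± 0.74, limma adjusted p = 0.0858), with no overlap of the diets and a wide spread under the normal diet. Ugt2b38, of the same family of close copies, was at 3.78, 3.79 and 4.76 on the high-fat arrays, against 7.95, 5.62 and 4.28 on the normal diet arrays (-1.84 ± 0.83, limma adjusted p = 0.198). The normal diet array with the highest level was normal diet 3 for Ugt2b37 and normal diet 1 for Ugt2b38. Hsd17b13, a lipid droplet protein gene of the hydroxysteroid dehydrogenase family, was at 10.73, 11.40 and 11.42 on the high-fat arrays, against 10.18, 9.93 and 10.62 on the normal diet arrays (0.94 ± 0.24, limma adjusted p = 0.0572).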
